A study of Mus musculus with 6 samples.

Results

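Ngfr, the gene of the low-affinity neurotrophin receptor, was described in B16F10 melanoma cells with and without MTyr-OANPs. It is 1 gene of the 99 in the table analysed here, found by its gene name (ENSMUSG00000000120). The identifiers of these 99 genes all lie between ENSMUSG00000000001 and ENSMUSG00000000563, so the table is a slice by identifier. Ranks, shares of called genes and missing genes describe this slice and not the whole transcriptome. Ngfr was chosen by its FPKM and counts, which were much higher after treatment in these same libraries, and for its place in melanoma biology. Its difference between the groups is therefore given as a description, with no test. B16F10 is a pigmented mouse melanoma line that colonises the lung, labelled wild type, and all 6 libraries came from it. The untreated group had 3 libraries with no agent added, and the treated group had 3 libraries kept with MTyr-OANPs for 48 h. The labels give no time for the untreated group, so any difference in culture time cannot be told apart from treatment. The submitters' code for the preparation is not expanded in the labels. No group received an empty carrier, so handling and carrier cannot be told apart from the rest of the preparation. The submitters state 3 biological replicates a group but not how cultures were kept apart, and p-values cover no more than the variation among these 6 libraries. The series title names nutrient delivery and metabolic reactivation in melanoma as the aim.

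The receptor that Ngfr encodes spans the membrane, belongs to the tumour necrosis factor receptor superfamily and carries a death domain inside the cell. It binds the neurotrophins, and with sortilin it binds their uncleaved precursors. Migrating neural crest cells, from which melanocytes arise, carry it, and some Schwann cells keep it. In human melanoma it marks cells that resemble neural crest and have lost part of their pigment programme.

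Ngfr lies on the minus strand of chromosome 11 at 95568818 to 95587735 (GRCm38). GENCODE M21 gives it 1 transcript of 6 exons and 3446 nt, of which 1281 nt (37.2%) are coding. No other annotated gene overlaps it. Its nearest annotated neighbours are Nxph3, 54.2 kb away toward lower coordinates, and Gm11528, 34.9 kb away toward higher coordinates. Runs of 50 bases shared with transcripts of 122 other genes covered 81 bases (2.4%) of the Ngfr transcript, a stretch of simple repeats. No other stretch of the transcript shared such a run with another gene.

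The sequence just before the annotated start of the counted transcript is printed to show the region from which the Ngfr transcript begins. It covers chr11:95587736-95587948 (GRCm38.p6, minus strand, 5′ to 3′), 213 bases from RefSeq's promoter table, and capitals mark the GC box GGGCGG.
Ngfr promoter: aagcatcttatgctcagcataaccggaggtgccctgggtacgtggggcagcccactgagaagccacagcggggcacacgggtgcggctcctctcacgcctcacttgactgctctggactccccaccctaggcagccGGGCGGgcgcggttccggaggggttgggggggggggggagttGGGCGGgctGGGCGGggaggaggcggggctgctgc
RefSeq places the start 37 bases further into the gene than GENCODE M21 does. The stretch is 70.9% G and C, against a median of 51.6% over 32851 promoter stretches of the same length, and 92.3% of these had a lower share. GGGCGG, searched on both strands, occurred 3 times, all on the strand printed. At least 1 match was found in 27.4% of the 32851 stretches, and at least 3 in 5.5%. The E-box CANNTG, which reads alike on both strands, occurred 1 time, and 61.1% of the stretches held one. TATAAA was not found on either strand, and 9.7% of the stretches held it. All stretches compared, that of Ngfr included, began at base -250 from the RefSeq start and ended 37 bases short of it. Bases nearer to that start were not searched. These matches describe the letters and were not tested as binding sites.

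Ngfr transcripts were scarce in untreated cells and of middling abundance after treatment. In FPKM (fragments per kilobase of gene, scaled to library depth), untreated libraries 1, 2 and 3 had levels of 1.47, 1.30 and 1.34. Treated libraries 1, 2 and 3 had levels of 10.8, 9.98 and 9.74. All 3 treated libraries lay far above all 3 untreated ones, and the libraries within each group lay close together. The mean level was 1.37 ± 0.0895 FPKM (SD, n = 3) without treatment and 10.2 ± 0.529 FPKM (SD, n = 3) with it. The ratio of means was 7.43, and the difference of mean log2 FPKM was 2.89 (SE 0.07). The lowest treated level was 6.64 times the highest untreated level, and the highest treated level was 8.30 times the lowest untreated one. In RNA from a whole culture, a change in every cell and a change in a fraction of the cells cannot be told apart.

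**Figure D1:**
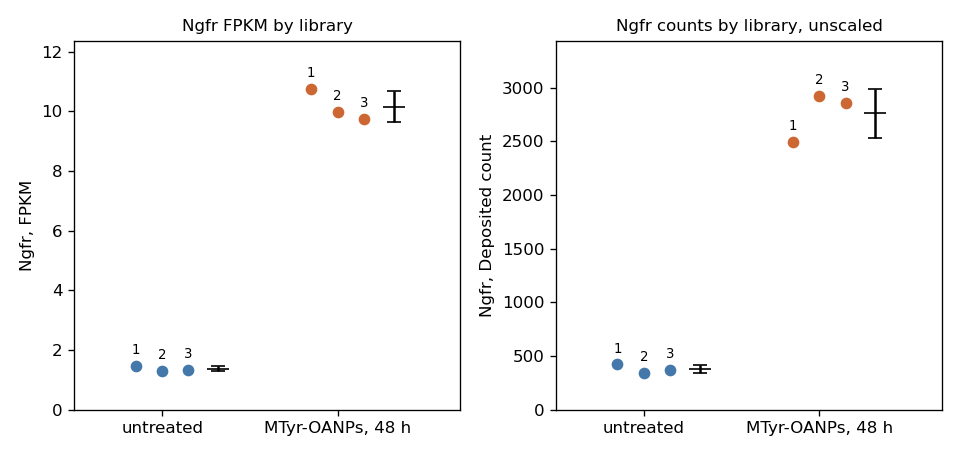
Ngfr in each library, as FPKM (left) and as the deposited count before scaling (right), with points numbered by replicate and bars for the mean ± SD of 3 libraries. Treated libraries lie between 9.74 and 10.8 FPKM and untreated ones between 1.30 and 1.47 FPKM.

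The deposited counts behind these levels were 422, 344 and 367 in untreated libraries 1, 2 and 3. They were 2498, 2921 and 2860 in treated libraries 1, 2 and 3. Treated library 1 thus had the lowest count of its group and the highest FPKM. It was also the shallowest library, with a relative depth of 0.847 against 0.968 to 1.07 in the other five. In CPM, the counts scaled to implied depth, Ngfr had 5.07, 4.47 and 4.62 in untreated libraries 1, 2 and 3, and 37.1, 34.4 and 33.6 in treated libraries 1, 2 and 3. The ratio of group means was 7.42 on this scale and 7.31 on unscaled counts, so scaling to depth moved it little.

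Replicates of Ngfr differed by a coefficient of variation of 6.55% in untreated cells and 5.21% in treated cells. The median over 53 tested genes was 4.56% and 4.26%. Ngfr ranked 17th and 23rd from the most variable of these genes. Scaled to depth, the 3 untreated counts gave a chi-square of 3.31 on 2 degrees of freedom and the 3 treated counts 14.0. If 4 counts stand for 1 independent event, as steps in the low counts of the table leave possible, these values were 0.828 and 3.51. Counting noise alone gives about 2 on average.

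Most tested genes of the table differed between the groups, which is the background against which Ngfr has to be read. The test was edgeR's quasi-likelihood test with Benjamini-Hochberg adjustment, over 53 genes with a mean of at least 1 FPKM. It called 44 of them (83.0%) at an adjusted p under 0.05, 20 higher (37.7%) and 24 lower (45.3%). A rise of at least 2-fold was called in 4 genes (7.55%). These counts include the row of Ngfr, for which no call is reported. They also include Wnt9a, Itgb2, H19 and Arvcf, which reached the FPKM minimum only through the group where they were higher. The groups did not overlap in FPKM in 45 of the 53 genes (84.9%), and in 21 of them (39.6%) the treated libraries were the higher ones. Ngfr had the largest fitted log2 difference toward treated cells of the 53, for which it had been picked, so nothing is read from its rank. With no FPKM minimum it ranked 8th of 83 genes, below genes whose counts were 0 in every untreated library.

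**Figure D2:**
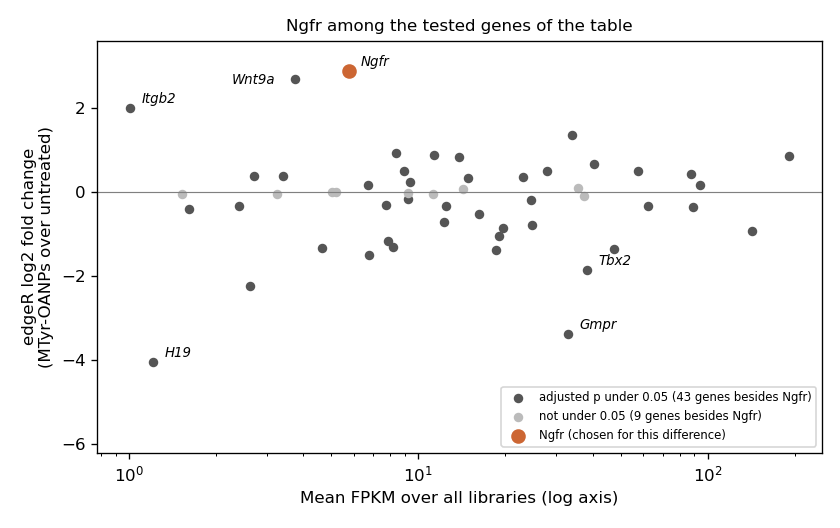
Fitted edgeR log2 fold change of treated over untreated cells against mean FPKM (log axis) for 53 tested genes. Ngfr (orange) and Wnt9a lie at 2.89 and 2.71, while most called genes lie nearer to 0 and H19 and Gmpr lie lowest.

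Fold and level gave different pictures. Among all 99 genes, ordered from the highest FPKM, Ngfr stood 51st, 52nd and 51st in untreated libraries 1, 2 and 3. It stood 29th, 31st and 31st in treated libraries 1, 2 and 3. The gain of 8.79 FPKM in its mean level was the 8th largest of 40 genes whose mean level was higher after treatment. Its share of all counts in the table ran from 0.0901% to 0.103% in untreated libraries and from 0.679% to 0.748% in treated ones.

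The genes next to Ngfr in mean level could mostly not be separated from it. In untreated cells the next lower gene was Tspan32, a tetraspanin of blood cells, at 1.21 ± 0.265 FPKM (SD, n = 3). The next higher was Pemt, a phosphatidylethanolamine methyltransferase, at 1.55 ± 0.152 FPKM (SD, n = 3). The ranges of both overlapped that of Ngfr. In treated cells the next higher gene was Grasp, at 10.2 ± 0.406 FPKM (SD, n = 3), with a range that overlapped that of Ngfr. The next lower was Galnt1, which starts mucin-type sugar chains, at 9.29 ± 0.164 FPKM (SD, n = 3), and its highest library, at 9.38 FPKM, lay below the lowest of Ngfr.

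Ngfr's own pathway was hardly represented beside it. None of 30 listed ligands, co-receptors and adaptors of the receptor, such as Bdnf, Sort1 and Traf6, was among the genes analysed here. Their absence follows from which genes the table holds and says nothing of their expression. The table's KEGG annotation gave Ngfr 8 terms, shared in part with 17 other genes. Of these, 9 were tested and 8 were called, 5 higher and 3 lower, a share near the 83.0% of all tested genes.

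Among the genes that share a KEGG term with Ngfr, the G protein subunit Gna12 fell 1.71-fold (edgeR adjusted p = 3.6e-13). The inhibitory G protein subunit Gnai3 rose 1.41-fold (edgeR adjusted p = 2.0e-11), and the cyclin Ccnd2 rose 1.36-fold (edgeR adjusted p = 1.0e-09). Acvrl1, a type I receptor for the TGF-beta family, shares the cytokine receptor term and fell 2.83-fold (edgeR adjusted p = 3.3e-11). Acvr1b, the activin type I receptor under the same term, had 5.18 ± 0.202 FPKM untreated and 5.19 ± 0.433 FPKM treated (SD, n = 3 each) and did not pass (edgeR adjusted p = 0.98). Tfe3, a transcription factor of lysosomal genes, rose 1.13-fold (edgeR adjusted p = 8.1e-03). Leaving out untreated library 2 took that call away (edgeR adjusted p = 0.054), as did leaving out treated library 3 (edgeR adjusted p = 0.091). Itga5 and Itgb2 also belong to this set and are described with adhesion. Exons of 13 of the 28 genes named by rule or added here overlap another annotated gene, Gna12 with Amz1 and Gpr107 with Gm13405 among them. The strand setting of the counts is not known, so values of such genes can include reads of the partner. Ngfr, Wnt9a, Tbx2, Itga5 and Itgb2 have no such overlap. Among untested genes of this set, the insulin gene Ins2 and the integrin gene Itgb2l had a count of 0 in all libraries. The growth factor genes Fgf6 and Fgf23 had counts of 6 and 8 in treated library 2 and of 0 in the other libraries of both groups.

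The cell state for which Ngfr is known could be followed in few other genes. Of 25 other genes listed for the neural crest and dedifferentiated melanoma state, only Cdh1 was among the 99. Cdh1, the epithelial cadherin through which melanocytes hold to keratinocytes, had counts of 0, 12 and 4 in untreated libraries 1, 2 and 3 and of 8, 8 and 16 in treated libraries 1, 2 and 3. These counts overlap and lie below the level at which genes were tested.

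Of 18 genes listed for melanocyte differentiation, Tbx2 was the 1 present. Tbx2 is a T-box repressor that restrains senescence in melanoma cells and is a target of the melanocyte factor Mitf. Its levels were 59.0, 61.7 and 59.2 FPKM in untreated libraries 1, 2 and 3 and 16.9, 16.1 and 17.1 FPKM in treated libraries 1, 2 and 3. Every treated library lay below every untreated one, the opposite order to Ngfr. Tbx2 fell 3.59-fold, with a log2 fold change of -1.84 (edgeR adjusted p = 4.3e-22). Over all tested genes the groups did not overlap in 84.9%, and 45.3% were called lower. Nothing about melanocyte differentiation is read from this 1 gene. None of the 6 markers set down for melanoma cells or melanocytes, among them Mitf, Sox10 and Tyr, was among the 99, so the labelled cell type was not checked here.

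Wnt signals induce neural crest in the embryo. Of 22 genes on a list of Wnt ligands, Wnt targets and the kinase Fer, 5 were in the table. Of these, 4 were tested, 2 rose and 1 fell. Over all tested genes 37.7% were called higher and 45.3% lower, and nothing particular to Wnt genes is read from so few. Wnt9a, a secreted Wnt ligand, was 6.59-fold higher, and Ccnd2 rose as given above. Wnt9a had means of 0.988 FPKM untreated and 6.50 FPKM treated. It passed the FPKM minimum only through its treated libraries, so no p-value is given for it. Axin2, a feedback inhibitor that canonical Wnt signalling turns on, had 1.85 ± 0.135 FPKM untreated and 1.39 ± 0.200 FPKM treated (SD, n = 3 each). It fell 1.33-fold (edgeR adjusted p = 0.012). That call did not hold with TMM scaling (edgeR adjusted p = 0.1) and without untreated library 2, treated library 1 or treated library 2 (edgeR adjusted p = 0.052, 0.052 and 0.063). Fer, a tyrosine kinase that binds catenins, had 9.32 ± 0.219 FPKM untreated and 9.15 ± 0.226 FPKM treated (SD, n = 3 each) and did not pass (edgeR adjusted p = 0.76). Wnt3 had a count of 4 in treated library 1 and of 0 in the other libraries of both groups.

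Of 19 listed genes of adhesion and invasion, 8 were in the table and 4 were tested, of which 2 rose and 2 fell, counts too small to set against the 83.0% of all tested genes. Itga5, whose product pairs with the beta1 integrin chain to bind fibronectin, rose 1.60-fold (edgeR adjusted p = 5.0e-14), and Itgb2, the beta chain of leukocyte integrins, rose 4.0-fold (edgeR adjusted p = 1.7e-08). Arvcf, a catenin that binds cadherins, fell 4.71-fold (edgeR adjusted p = 4.0e-15), and the caveolin Cav2 fell 2.58-fold (edgeR adjusted p = 6.9e-17). Over all lists set down for this report, 18 of 127 genes besides Ngfr were in the table and 9 were tested. The test called 8 of these 9, 4 higher and 4 lower, again near the background of 83.0%.

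**Figure D3:**
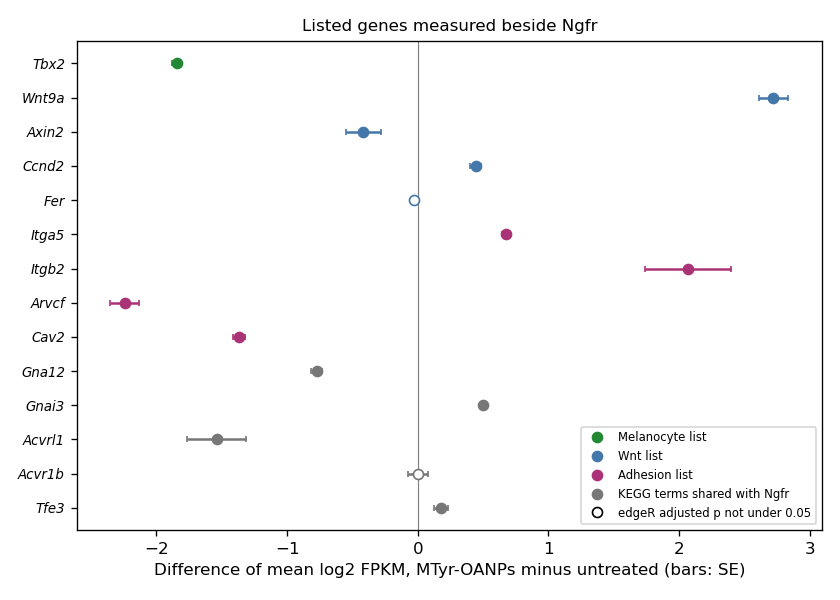
Difference of mean log2 FPKM, treated minus untreated, with SE bars, for tested genes of the lists and of the KEGG terms of Ngfr. A gene of several sets is drawn in the first, filled points passed edgeR's test, and values run from -2.24 for Arvcf to 2.72 for Wnt9a.

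The few markers of Schwann cells, nerve and fibroblasts in the table were near 0. They leave most listed markers of these cells unmeasured, and Drp2 speaks only for myelinating Schwann cells. Of 8 Schwann cell and nerve markers, Drp2 and Th were in the table. Drp2, a dystrophin relative of myelinating Schwann cells, had mean counts of 43.0 untreated and 25.7 treated, and Th, the tyrosine hydroxylase of catecholamine neurons, had mean counts of 1.3 and 4.0. Their summed level ran from 0.0602 to 0.0815 FPKM in untreated libraries and from 0.0512 to 0.0598 FPKM in treated ones. Drp2 overlapped between groups, and no order was read from sums of such low counts. Fap, the 1 of 4 fibroblast markers present, had a summed level of at most 0.0329 FPKM in untreated libraries and was listed at 0 in all treated ones.

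Of 5 leukocyte markers, Itgb2, Lck and Tspan32 were in the table, with a summed level of 1.64 to 2.26 FPKM in untreated and 2.71 to 3.31 FPKM in treated libraries. Itgb2 and Lck were higher after treatment and Tspan32 was lower, so these markers did not move together. Ptprc and Cd3e of that list were not analysed here, and the part of such cells in the Ngfr result was not tested.

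Genes with a profile like that of Ngfr were ranked by the root mean square difference of log2 FPKM over all 6 libraries, each gene centred on its own mean. The measure follows mainly the size of the difference between groups, on which Ngfr was chosen, so it describes likeness and carries no test. Among 52 other tested genes, the nearest was Wnt9a, at 0.11. Itgb2 followed at 0.57, the zinc finger gene Zfp385a at 0.77, the membrane protein gene Gpr107 at 0.98 and Wdr77, which works with the arginine methyltransferase Prmt5, at 1.00. The median over the 52 genes was 1.47.

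Wnt9a stood apart as the closest of them. Its levels were 1.11, 0.889 and 0.961 FPKM in untreated libraries 1, 2 and 3 and 6.68, 6.86 and 5.98 FPKM in treated libraries 1, 2 and 3. Ngfr exceeded Wnt9a in every library, by a ratio of FPKM between 1.32 and 1.46 in untreated libraries and between 1.46 and 1.63 in treated ones. The ratio between these genes changed far less than the level of either. Wnt9a was picked for likeness to Ngfr in these same libraries, so nothing is read from that steadiness.

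With the FPKM minimum dropped, a comparison added after the values were seen, 63 other genes had a count in every library. Cttnbp2, which binds cortactin, and Lck, a kinase of T cells, then came next after Wnt9a, at 0.41 and 0.46. Cttnbp2 had 0.122, 0.142 and 0.140 FPKM in untreated libraries 1, 2 and 3 and 0.600, 0.525 and 0.691 in treated libraries 1, 2 and 3. Lck had 0.241, 0.241 and 0.392 FPKM in untreated libraries 1, 2 and 3 and 1.30, 1.09 and 1.48 in treated libraries 1, 2 and 3. Both were far scarcer than Ngfr in every library. They were picked for likeness to Ngfr, so nothing is read from the gap between their groups.

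**Figure D4:**
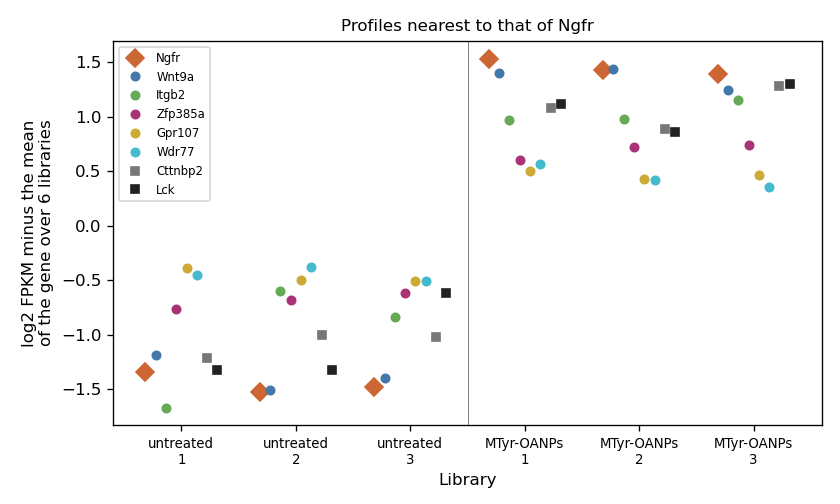
log2 FPKM of each library minus the gene's mean over 6 libraries, for Ngfr (orange diamonds), the 5 nearest tested genes (circles) and Cttnbp2 and Lck from below the FPKM minimum (squares). Wnt9a lies close to Ngfr in each library, though both Lck and Cttnbp2 lie closer in untreated library 1 and in treated library 3. Gpr107 and Wdr77 lie nearer to 0 in both groups.

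Genes called in both directions lay on the chromosome of Ngfr. Chromosome 11 carried 22 other genes of the 99, of which 12 were tested, 4 called higher and 5 called lower. Over all tested genes 83.0% were called, 37.7% higher and 45.3% lower, so these counts lie near the background. The nearest toward lower coordinates were Dgke, Trim25 and Scpep1, at 6.50, 6.55 and 6.61 Mb from Ngfr. Dgke, a diacylglycerol kinase, had 3.27 ± 0.630 FPKM untreated and 3.21 ± 0.525 FPKM treated (SD, n = 3 each) and did not pass (edgeR adjusted p = 0.84). Trim25, a ubiquitin ligase below the FPKM minimum, had 0.504 ± 0.109 FPKM untreated and 0.211 ± 0.0253 FPKM treated (SD, n = 3 each). Scpep1, a serine carboxypeptidase, rose 1.83-fold (edgeR adjusted p = 1.1e-15). Toward higher coordinates, Wnt3 lay at 8.19 Mb, Apoh at 12.8 Mb and Axin2 at 13.3 Mb. Apoh had no FPKM above 0 in either group. Wnt9a, the gene most like Ngfr, lies on the same chromosome but 36.2 Mb away.

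**Figure D5:**
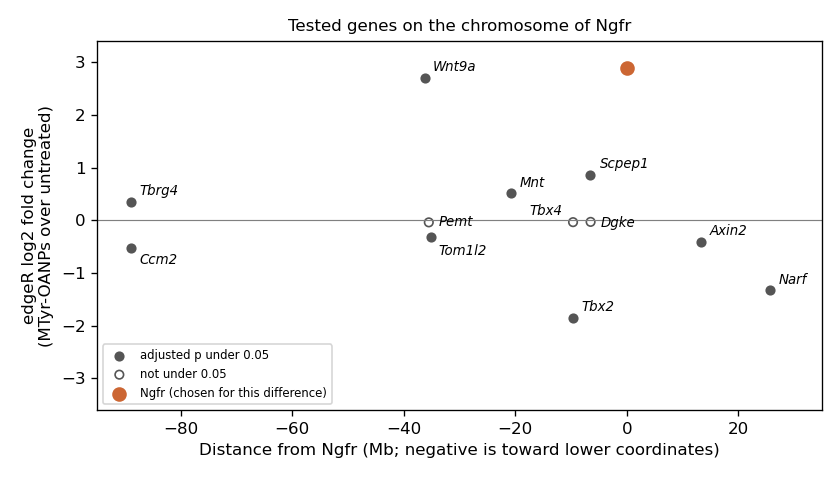
Fitted edgeR log2 fold change of the 12 other tested genes on chromosome 11 against their distance from Ngfr in Mb. Called genes lie on both sides of 0 at near and far distances, with Scpep1 above and Tbx2 below 0 within 10 Mb of Ngfr.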

How the data were processed

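RNA of 3 untreated and 3 treated B16F10 cultures was sequenced after poly(A) selection as paired reads, per the labels' protocols. For each gene and library the authors deposited a whole-number count and an FPKM value (per the file headers). CASAVA 1.4 and mm9 stand in the submitters' processing notes. Not given in the sources used here are aligner, counter and strand setting. Gene ends match GENCODE M21 on GRCm38 for 86 of 99 genes at both ends and for 13 at 1 end, so GRCm38 is used. A count of 0 was listed as 0.0001 FPKM in all 173 cases and was read as 0. Table totals were 334160 to 421423 counts. The depths implied by counts and FPKM were 67413183 to 85232640, so the 99 genes hold a small part of each library. Of 41 counts from 1 to 20, 30 were multiples of 4, and what 1 count stands for in read pairs was not settled.

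Library sizes for edgeR 4.0.16 (R 4.3.3) were the depths implied by counts divided by FPKM over 59 genes with counts of at least 50. These genes set the relative depths, and 7 of them with 1 annotated transcript, Ngfr included, set the absolute scale. The depth that Ngfr alone gives differed from the result by at most 0.21%, which is no independent check. Tests were two-sided, over genes with a mean of at least 1 FPKM, and adjusted p under 0.05 was a call. The SE of a log2 difference was computed from log2 FPKM within each group, and folds are ratios of mean FPKM. The edgeR step was tested on simulated data.

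Named genes were Ngfr, the 5 nearest profiles, neighbours in level and position, and the measured members of the lists; the result of 1 gene is not reported here. The KEGG sets come from the table's annotation and were added after the values were seen, as were Lck and Cttnbp2 among the profiles. Ngfr, the lists and the rules were chosen with earlier results of these data known. Alternatives were TMM and DESeq2 scaling, DESeq2 1.42.0, limma 3.58.1 with other pseudocounts, other FPKM minimums, a replicate block, and the omission of each library in turn.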

Additional observations from a re-analysis of the deposited data

How the results depend on the processing

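The log2 difference of Ngfr, 2.89, was 3.03 with TMM scaling, 2.24 on log2(FPKM + 1) and between 2.81 and 2.95 in the other 10 alternatives, with 2.85 to 2.94 when 1 library was left out. TMM raised the median log2 fold change of all tested genes by 0.14, and Ngfr lay 2.92 above that median under either scaling. Rescaling shifts all genes nearly alike, so that distance could hardly change. The pseudocount of 1 shrinks low levels by construction. Calls numbered 35 to 51 over 14 alternatives, against 44, and 40 to 44 when 1 library was left out. Genes called at least 2-fold higher, 4, numbered 7 with TMM, 7 with no FPKM minimum (more genes tested) and 2 with a minimum of 5 FPKM (fewer tested). List genes called, 8, numbered 4 with that minimum. With the replicate block, 45 genes were called and Ngfr stood at 2.89. Deviations of same-numbered libraries 1, 2 and 3 correlated at 0.31, 0.40 and -0.01, and those of differently numbered ones at -0.399 to 0.131. The values for numbers 1 and 2 lay above all of the latter. Whether the numbers mark pairs was thus not settled, and the main fit did not use them. Of 316 values of 23 other named genes, 292 kept direction and call, 9 lost the call (Axin2, Grasp, Tfe3) and 15 of 4 uncalled genes near 0 changed sign. With TMM and DESeq2 size factors, Dgke was 0.110 and 0.038, Fer 0.109 and 0.038, and Pemt 0.099 and 0.027. With 1 library left out, Dgke ran from -0.172 to 0.10, Pemt from -0.192 to 0.055 and Acvr1b from -0.041 to 0.071.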

Other observations

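Tspan32, the tetraspanin of blood cells that lay next below Ngfr in untreated cells, parted from it after treatment. The ratio of Ngfr to Tspan32 in FPKM was 1.27, 0.863 and 1.36 in untreated libraries 1, 2 and 3, so neither gene was the higher one throughout. In treated libraries 1, 2 and 3 the ratio was 68.8, 166 and 120. Both genes contributed, since Tspan32 itself went from mean counts of 605.7 to 48.7. This pair was noticed after the values were seen and was not tested.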
